A study of Mus musculus with 3 samples.

Results

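The distal end of mouse chromosome 4 carries a cluster of KRAB zinc finger genes, and the coverage of that stretch by RNA from ovulated oocytes is described here across 3 litters. The region was the 3 megabases from 145000001 to 148000000 on chromosome 4 of the mm9 build, cut into 3000 windows of 1 kb, out of 2725738 windows in the files and beside 152631 on the rest of chromosome 4. It was picked because it is rich in such genes and because some of its stretches were already known to be highest in litter 3, so the difference between litter 3 and the other litters is given as a description. The one test that holds litter 3 sets its counts against counting error, over the whole genome, and nothing is read from it for the region. The eggs came from superovulated females and were collected by embryonic day 0.5 and lysed, with 1 library for each litter and no other group of samples. All females were homozygous for a floxed allele of LSD1 (FL/FL), a histone demethylase gene, were of mixed strain, and lacked the ZP3::Cre transgene, in which the promoter of an oocyte zona pellucida gene drives the recombinase, so that no recombinase was there to delete the allele. Their RNA was amplified by SPIA, an isothermal copying from a single kind of primer (NuGEN Ovation RNA-Seq), before an Illumina library was built. Whether a litter stands for 1 female or several pooled ones was not given in the sources used here.

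KRAB zinc finger proteins bind DNA through arrays of zinc fingers and recruit, through the KRAB domain, the corepressor TRIM28 (KAP1), which brings in enzymes that deposit repressive chromatin marks. Many of them silence retroelements, and oocytes and early embryos are among the cells in which that silencing is best studied. Their genes multiply by tandem duplication and lie in clusters of similar copies, so a short read from one gene can match several.

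That likeness is visible in the sequences of the genes themselves. RefSeq lists 82 genes on GRCm38.p6 between the flanking genes Tnfrsf8 and Miip, of which 19 are protein-coding, 16 of these with a Zfp name, and 56 are pseudogenes. That this interval is the mm9 region was taken from the cluster's known place and was not checked, since the deposited tracks are on another build, and for the same reason no window below is given a gene name and the labelled cell type could not be checked against oocyte markers. Of the 19 protein-coding genes, 18 had transcripts in GENCODE M21, and 17 of these 18 shared at least 1 exact stretch of 72 bases, the read length of the libraries, with another of them. The share of a gene's 72-base stretches that also occurred in another of the 18 had a median of 43.2% and passed 50% in 7 genes. The lines that follow show a stretch of coding sequence common to 6 of the genes (Zfp990, Gm13212, Zfp987, Zfp988, Zfp985 and Zfp534). Then comes, for 5 others, the stretch of their coding sequence with the fewest differing bases, without gaps. Capitals mark each base that differs from the common stretch. Over all transcripts of GENCODE M21, coding or not, the common stretch occurs in 11 genes. The lines are printed because a read of 72 bases from the first line cannot be assigned to 1 gene. The others show the nearest stretch in each gene, and whether it is a copy of the common stretch was not checked.
Common stretch: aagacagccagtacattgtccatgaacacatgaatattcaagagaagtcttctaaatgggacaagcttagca
Zfp991: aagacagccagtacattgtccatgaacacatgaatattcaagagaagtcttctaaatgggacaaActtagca
Zfp984: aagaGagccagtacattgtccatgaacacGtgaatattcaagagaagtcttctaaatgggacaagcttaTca
Rex2: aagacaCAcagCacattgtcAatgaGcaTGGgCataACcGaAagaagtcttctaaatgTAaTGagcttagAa
Zfp600: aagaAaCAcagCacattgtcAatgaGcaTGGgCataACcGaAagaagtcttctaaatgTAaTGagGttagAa
Zfp933: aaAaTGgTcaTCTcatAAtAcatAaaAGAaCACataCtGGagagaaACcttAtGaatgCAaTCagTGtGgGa
Zfp991 differed from the common stretch at 1 base and Zfp984 at 3. Rex2 and Zfp600 differed at 18 and 20 bases, and Zfp933 at 32. Over whole transcripts Rex2 shared 83.2% of its 72-base stretches with another of the 18 genes, with Zfp600 the closest at 73.9%. Zfp993 followed with 76.2% and Zfp600 with 75.3%. At the other end stood Zfp985 with 4.41%, Zfp982 with 0.299% and Zfp933 with 0%. When all 74 matched genes of the interval were searched, pseudogenes included, Zfp991 stood at 76.7% instead of 62.1% and Zfp982 at 3.58%.

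**Figure D1:**
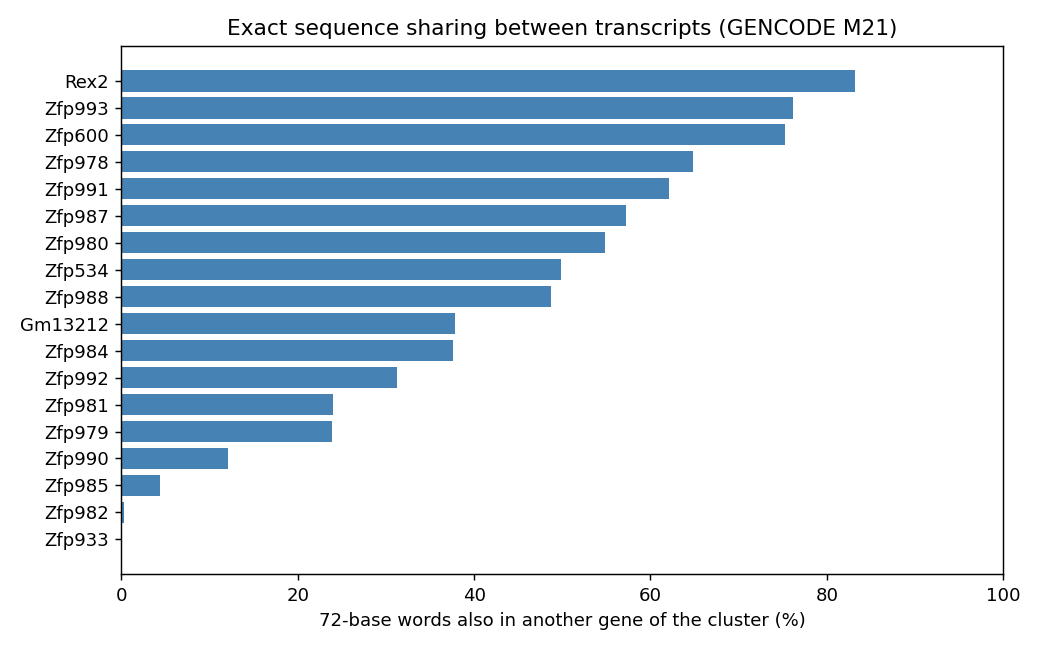
Percentage of the distinct 72-base stretches of each gene's GENCODE M21 transcripts that also occur in a transcript of another of the 18 protein-coding genes compared. The bars run from 83.2% for Rex2 to 0% for Zfp933, and 7 genes pass 50%.

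Alignments lay far more densely in the region than on the rest of the chromosome, and its level was highest in litter 3. Litter 1 gave 35183199 alignments of 72 bases, litter 2 gave 31787887 and litter 3 gave 32028802. Of these, 105292, 101627 and 139662 lay in the region, or 2993, 3197 and 4361 CPM, alignments scaled to a library of 1000000 (3517 ± 738, SD, n = 3). Litters 1 and 2 lay close together and litter 3 above both. As shares of a library these are 0.299% (95% Wilson interval 0.297 to 0.301) in litter 1, 0.320% (0.318 to 0.322) in litter 2 and 0.436% (0.434 to 0.438) in litter 3. The intervals cover counting error only and take every alignment as a separate draw. The reads carry no molecular identifiers, and a read placed at several positions was counted at each. The intervals are therefore too narrow even for counting error. With 1.93% of the windows of chromosome 4, the region held 7.00%, 7.29% and 8.97% of the chromosome's alignments in the 3 litters, a density of 1.17 CPM per window against 0.272 on the rest of chromosome 4, or 4.30-fold. With the positions of recurring runs, as defined below, left out, the density was 0.702 CPM per window against 0.319, or 2.2-fold. Repeats too shallow to be found as such runs remain in these values. A read that was placed at several positions adds to every one of them in these tracks. With the positions of recurring runs out of region and total, the mean level was 2107 CPM. With the 100 highest windows of the genome left out of the total it was 5378.

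Litter 3 divided by the average of litters 1 and 2, called the litter 3 ratio here, was 1.41 over the whole region and 1.10 over the rest of chromosome 4, where the litters stood at 39737, 40687 and 44270 CPM. Against single litters the region's ratio was 1.46 to litter 1 and 1.36 to litter 2, and litter 2 stood at 1.07 times litter 1. Each litter is a single library from a lane of its own, so that litter, library and lane cannot be told apart, and in RNA of whole egg collections fewer contributing cells and less RNA per cell cannot be told apart either. The litters are taken as separate samples from their labels, and the spread between them holds any technical variation of the libraries.

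Most of the level lay in the first part of the region and in its last 100 kb. The 2.2 megabases from 145000001 to 147200000 held 2684, 2909 and 3949 CPM in litters 1, 2 and 3, which is 90.4% of the region's mean level. The 0.8 megabases from 147200001 to 148000000 held 309, 288 and 412 CPM. Litter 3 was highest in both, with ratios of 1.41 and 1.38. The second of these rests on the last 100 kb: the 0.7 megabases before it held 104, 79.9 and 88.4 CPM, where litter 1 was the highest and the ratio was 0.962, a split made after the data were seen. At the left border the level rose from 0.40, 0.94 and 1.56 CPM in the 100 kb just outside to 144, 120 and 202 CPM in the 100 kb just inside. At the right border it fell from 205, 208 and 323 CPM in the last 100 kb inside to 0.48, 0.22 and 0.50 CPM in the next 100 kb. Both neighbouring stretches were thus nearly empty in every litter.

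**Figure D2:**
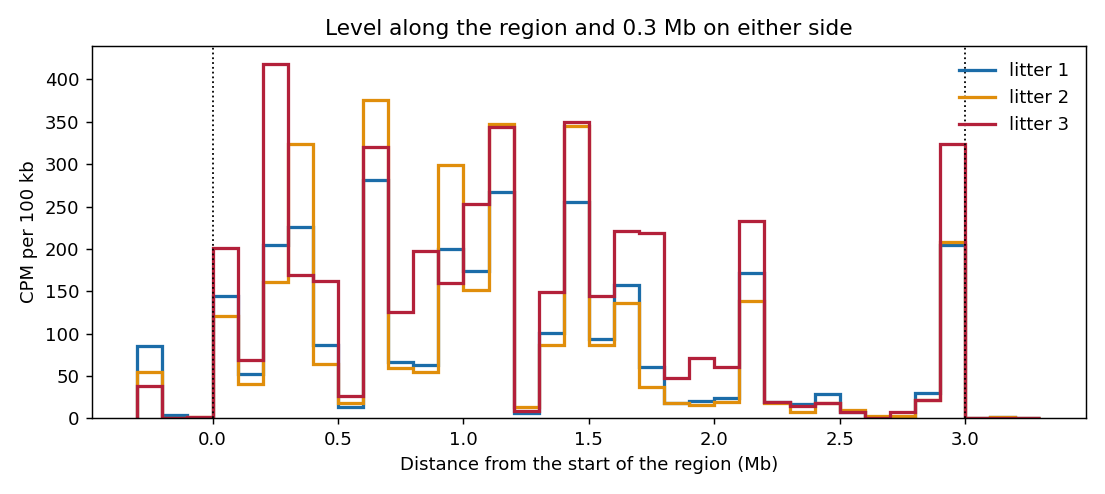
Level in CPM per 100 kb in each litter (lines) along the region and 0.3 megabases on either side, by distance from the region's start, with dotted lines at its borders. Litter 3 is highest in 20 of the 30 bins, yet the bin that starts at 0.3 megabases is lowest in litter 3.

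Along the region the litters changed order from stretch to stretch. Litter 3 was the highest in 20 of 30 bins of 100 kb and the lowest in 5. Among the 23 bins with a mean of at least 20 CPM, the ratio of litter 3 to the others was over 1 in 18 and ranged from 0.614 to 4.53. The highest ratio was in the bin from 146700001 to 146800000, with 60.4, 36.3 and 219 CPM in litters 1, 2 and 3. The lowest was in the bin from 145300001 to 145400000, with 226, 324 and 169 CPM. The bin from 145900001 to 146000000 had the same order of litters, at 200, 299 and 160 CPM. Litter 2 was thus the highest and litter 3 the lowest in both of these bins, the reverse of the bin with the highest ratio.

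Single windows gave the same picture of a dense but patchy region. Windows with any alignment numbered 978 of 3000 (32.6%), against 12.4% of windows on the rest of chromosome 4. Windows that reached 1 CPM in all 3 litters numbered 166, or 5.53% of the region, against 1.29% on the rest of chromosome 4 and 1.22% in the genome. In single litters 212, 199 and 258 windows reached it (223 ± 31.0, SD, n = 3), the most in litter 3. At 5 CPM the count in all litters was 72, against 0.482% on the rest of chromosome 4, and with each start position counted once it was 288, against 2.61%. A few windows held most of the level, with 30.5% in the 5 highest, 40.3% in the 10 highest and 87.6% in the 100 highest.

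Over the 239 windows that averaged 1 CPM or more, the litter 3 ratio, with 0.5 CPM added to each side, had a median of 1.65, with its middle 50% between 0.962 and 2.80. Over the 3106 such windows on the rest of chromosome 4 the median was 0.943 (0.517 to 1.65). Litter 3 was the highest in 162 of the 239 windows (67.8%), against 39.0% on the rest of chromosome 4 and 40.7% in the genome, and the lowest in 47 (19.7%), against 41.2% on the rest of chromosome 4. The ratio passed 2 in 93 windows (38.9%), against 18.9% on the rest of chromosome 4 and 20.1% in the genome, and it passed 4 in 27 windows (11.3%), against 5.25%. It was under 0.5 in 22 windows (9.21%), against 24.0% on the rest of chromosome 4. The ratio of litter 2 to litter 1 had a median of 0.920 in the region and 1.02 on the rest of the chromosome. Since high values in litter 3 led to the choice of the region, these shares describe it and nothing further is read from them.

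**Figure D3:**
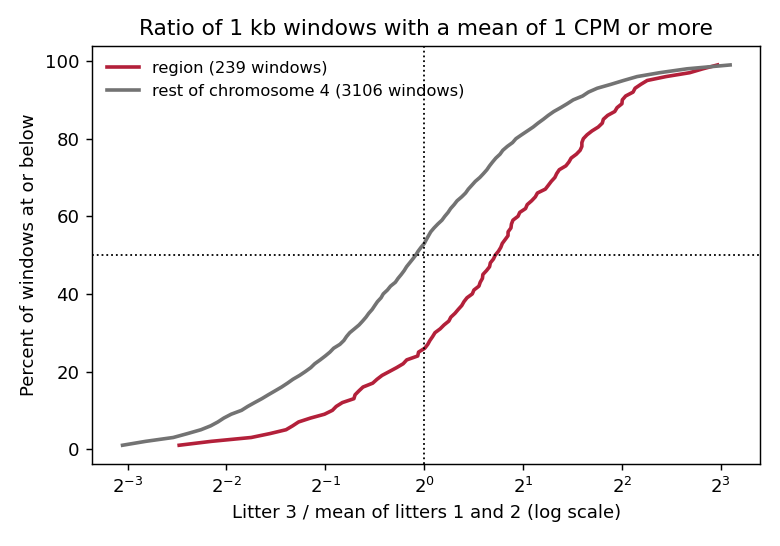
Cumulative percentage of 1 kb windows at or below each litter 3 ratio (litter 3 over the average of litters 1 and 2, log scale, 0.5 CPM added to each side), for the 239 windows of the region and the 3106 of the rest of chromosome 4 that averaged 1 CPM or more. The region's curve lies to the right, with medians of 1.65 and 0.943.

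Most of the alignments in the region lay in patterns of depth that recurred. A recurring run was taken as 3 adjacent start positions that together held 50 alignments or more and whose counts per library and spacing were met again elsewhere in the genome in either direction. Such runs held 54.4%, 62.5% and 50.8% of the region's alignments in litters 1, 2 and 3 (55.9% ± 5.98, SD, n = 3). The share was 13.1% ± 0.124 on the rest of chromosome 4 and 25.9% ± 2.10 in the genome, so every litter was above both. Of the alignments in runs deep enough to be compared, 86.8% ± 2.46 recurred in the region and 19.7% ± 0.349 on the rest of the chromosome. Of 4259 runs deep enough, 3505 (82.3%) recurred. They made up 1241 distinct runs, of which 510 recurred inside the region alone, 534 both several times inside and also outside, and 197 once inside and elsewhere outside. A single run occurred at up to 9 places in the region and 13 in the genome.

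The litter 3 ratio was larger for positions outside the recurring runs, as defined here, than for those within them. Positions in recurring runs held 1628, 1998 and 2216 CPM in litters 1, 2 and 3, a ratio of 1.22. The other positions held 1365, 1199 and 2144 CPM, a ratio of 1.67. On the rest of chromosome 4 the same ratios were 1.11 and 1.10. By window the order was not the same. The median ratio was 1.84 in the 49 windows with over 50% of alignments in recurring runs, 1.50 in the 58 with a smaller share and 1.66 in the 132 with none, against 0.954, 1.00 and 0.937 on the rest of the chromosome. All 3 classes of window in the region thus had medians above those of the same class elsewhere on the chromosome. Only 62.5%, 70.1% and 60.3% of the region's alignments in litters 1, 2 and 3 were deep enough to be compared. Positions outside recurring runs therefore include repeats too shallow to be found. The window from 145887001 to 145888000, for example, had 0% in recurring runs, yet lies in the longest block of identical counts described below.

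The recurring runs fell into 92 places, of which 72 belonged to 16 repeated patterns, named A to P here by falling level. Places were joined over gaps of up to 500 bases and put in the same pattern when they shared at least 3 runs. All 72 places lay between 145045816 and 147120435, in the first 2.2 megabases, and they held 65.7% of the whole region's mean level. A pattern had 2 to 9 places, and 12 patterns had at least 1 place where the pattern ran in the opposite direction. In 6 patterns (D, I, K, L, O and P) the counts in all 3 libraries were identical at every place. Runs of the 92 places were also found at 58 places outside the region. Among these were places of 12 of the patterns, whereas I, J, K and M had none with at least 3 shared runs. The outside runs were most frequent on the unlocalised sequence of chromosome 4 (440 runs), followed by chromosome 8 (275) and chromosome 10 (217).

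**Figure D4:**
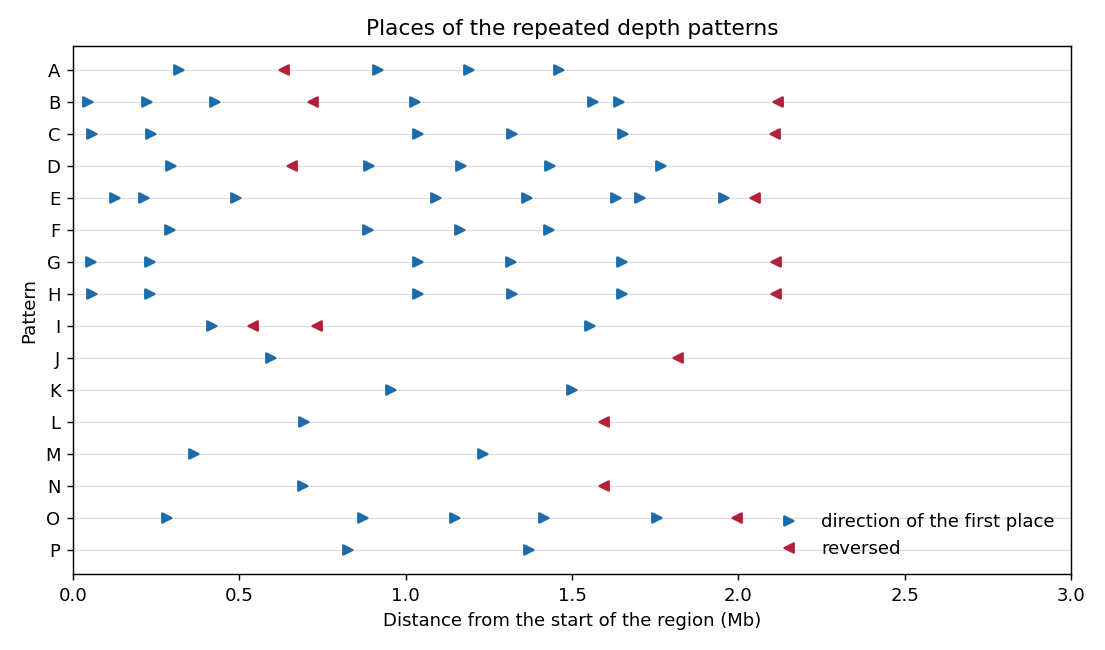
Places of the 16 repeated depth patterns (rows, A to P) by distance from the start of the region, with triangles pointing left where the pattern ran in the opposite direction to its first place. All 72 places lie before 2.2 megabases, and C, G and H lie side by side at 6 places.

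The highest pattern, A, was the lowest in litter 3. It spanned 834 to 837 bases at 5 places, and its places held 6757 to 7851 alignments in litter 1, 9036 to 10434 in litter 2 and 4846 to 5351 in litter 3. Litter 2 was above litter 1 and litter 3 below both at every place. Summed over its places pattern A held 1026, 1501 and 777 CPM (1102 ± 368, SD, n = 3), which is 31.3% of the region's mean level, with a ratio of 0.615. The places began at 145319405, 145632829 (reversed), 145915027, 146191354 and 146460382. The first and the fourth held identical counts, and so did the third and the fifth. The pattern also occurred on the unlocalised sequence of chromosome 4 (41394 to 42229, 330 shared runs), and stretches of it on chromosomes 10 (25827776 to 25828306, 217 shared runs), 8 and 2.

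Pattern D had the largest excess in litter 3. It was 158 bases long and held 498, 166 and 2708 alignments in litters 1, 2 and 3 at each of its 6 places. Its litter 3 ratio was 8.73, with 5.97 to litter 1 and 16.2 to litter 2, so litter 2 lay well below litter 1. Summed over the places it held 84.9, 31.3 and 507 CPM. The places began at 145294179, 145658655 (reversed), 145889383, 146165991, 146434738 and 146767103. All 53 runs of the pattern at a place also occurred on the unlocalised sequence of chromosome 4. Each of the 5 places of pattern A had a place of pattern D 25226 to 25826 bases away, before it in the 4 places of the usual direction and after it in the reversed one. The lowest and the highest ratio among the 5 highest patterns thus occurred within 25826 bases of each other at these 5 places. The place of D at 146767103 had no place of A that near.

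Summed over their places, patterns B, E and F were also highest in litter 3. B spanned 739 to 845 bases at 8 places and held 344, 249 and 546 CPM in litters 1, 2 and 3, a ratio of 1.84. The ratio at its single places ran from 1.47 to 2.43. E had the most places, 9 of 85 to 138 bases, and held 58.7, 36.7 and 185 CPM, a ratio of 3.88. F, with 4 places, held 35.5, 76.2 and 119 CPM, a ratio of 2.14. Its single places ran from 1.47 to 2.19, and at 146162459 litter 2 (6.80 CPM) was above litter 3 (6.06 CPM). Litter 2 was below litter 1 in B and E but above it in F. By their sums these patterns thus shared litter 3 as the highest and not the order of the other litters.

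Patterns C, G and H lay together at 6 places, with C 1627 to 2439 bases from G and G 600 to 894 bases from H. C held 264, 251 and 236 CPM in litters 1, 2 and 3, a ratio of 0.916 and the smallest relative spread of the 16 patterns. G held 49.4, 70.8 and 90.9 CPM and H held 61.2, 25.0 and 60.0 CPM. By these sums each of the 3 neighbours ordered the litters in its own way, but the order changed between places. C at 146318996 was highest in litter 3 (28.5, 26.2 and 29.4 CPM), and G at 146317134 in litter 2 (3.15, 4.91 and 3.37 CPM). H at 147111360 was highest in litter 3 (3.84, 1.42 and 4.75 CPM). Among the smaller patterns, I held 91, 60 and 246 alignments at each of 4 places of 87 bases, a ratio of 3.43. P held 69, 111 and 20 at each of 2 places, a ratio of 0.229. Over the 16 patterns, by their sums, litter 3 was the highest in 8, litter 2 in 6 and litter 1 in 2, and litter 3 was the lowest in 6.

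**Figure D5:**
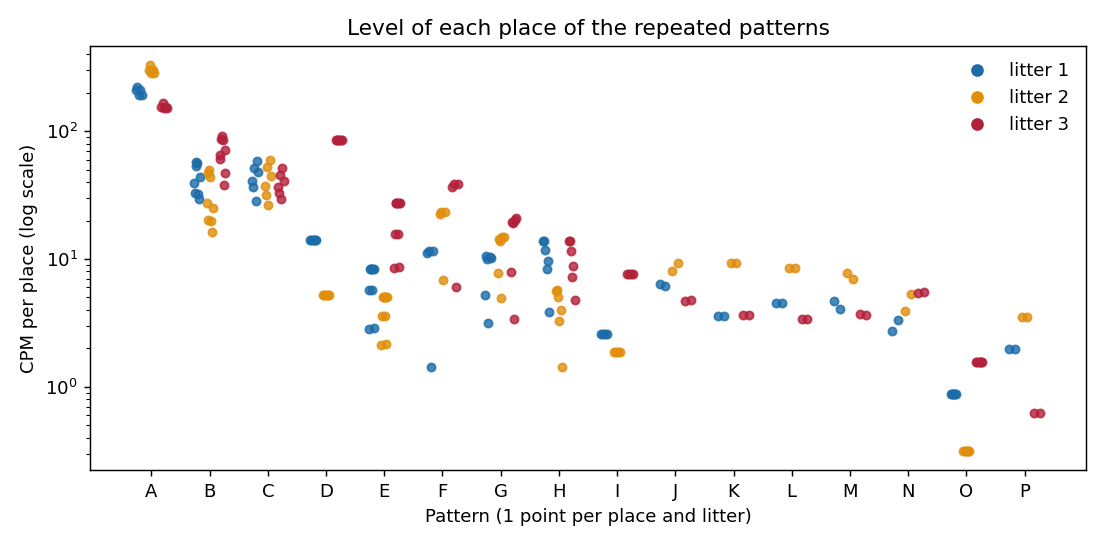
CPM (log scale) at each place of the 16 patterns in each litter, 1 point per place and litter. Points of litter 3 lie below the others in A and above them in D, E and I, and points coincide where the places hold identical counts.

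The excess of litter 3 was made up of unequal parts. Litter 3 exceeded the mean of litters 1 and 2 by 1266 CPM over the region. The patterns together gave 444 CPM of this and the alignments outside them 821. Pattern D gave 449 CPM, B 249, E 138 and F 63.5, whereas A gave -486. These parts are sums over places, and a read placed at several of them counts at each. The part of D adds the same counts at 6 places, and that of A adds 5 places. The parts thus grow with the number of places and are not shares of separate reads. Patterns other than A held 961, 833 and 1828 CPM, a ratio of 2.04, and the region outside the patterns held 1005, 863 and 1755 CPM, a ratio of 1.88. Both of these exceed the ratio of 1.41 of the whole region with pattern A included.

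Repeated patterns lined up into longer blocks. There were 77 pairs of blocks inside the region that shared at least 10 recurring runs at a fixed offset or around a fixed mirror point, 48 in the same direction and 29 reversed, with a median length of 158 bases. The longest pair was 145871497 to 145915862 and 146416852 to 146461217, 44366 bases at an offset of 545355, with identical counts at all 1941 of 1941 start positions. Extended to the nearest difference, the identical stretch ran over 56849 bases (145859053 to 145915901 and 146404408 to 146461256) and 2088 start positions, with 8753, 10515 and 10901 alignments in litters 1, 2 and 3 at each copy. It held a place each of patterns A, D, F and O. Over the whole block the litter 3 ratio was 1.17, with litter 2 close to litter 3 and litter 1, the largest library, the lowest.

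The next 4 pairs were shorter and less exact. The blocks from 145427473 to 145429961 and from 146562168 to 146564656 (2489 bases) had identical counts at 86.7% of start positions. The blocks from 146035696 to 146037902 and from 147110014 to 147112220 (2207 bases) mirrored each other at 70.8%. The blocks from 145054726 to 145056418 and from 146650611 to 146652303 (1693 bases) were identical at 62.0%, and the reversed pair from 145692373 to 145693585 and from 146594282 to 146595494 (1213 bases) at 73.9%. Exact identity thus held over the longest pair but not over these 4.

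Another 86 pairs joined the region to copies elsewhere. The longest joined 146594282 to 146598778 with 61004085 to 61008581 on chromosome 19, reversed, over 4497 bases, with identical counts at 52.0% of start positions. Nearly the same block matched 44399967 to 44404457 on chromosome 8 at 46.6%. The block from 145689111 to 145693585 matched 62288327 to 62292801 on chromosome 9, reversed, at 62.8%. The other 2 of the 5 longest, both from 146594282 to 146595514, matched 54914993 to 54916225 on chromosome 14 at 62.6% and 62288327 to 62289559 on chromosome 9 at 38.7%. All 5 thus came from a single pair of loci, which overlap the last reversed pair inside the region.

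The covered bases formed many short stretches. Bases covered in every litter, joined over gaps of up to 72 bases, gave 486 stretches that covered 105664 bases, or 3.52% of the region, and 385 of them (79.2%) lay in the first 2.2 megabases. Coverage in single litters was 5.67%, 4.83% and 5.89% (5.46% ± 0.557, SD, n = 3). Their median length was 109.5 bases, 323 were under 144 bases, the length of a pair of reads end to end, and 48 reached 500. The longest uncovered interval, 91.3 kb from 147615819 to 147707071, lay in the last 0.8 megabases. The count of stretches depends on its definition, with 270 when gaps of up to 500 bases were joined and 1082 when coverage in any litter was enough.

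The longest stretch ran over 3125 bases from 146650226 to 146653350, through a place each of patterns C, G and H, at a mean depth of 76.2, 68.3 and 81.4 alignments per base in litters 1, 2 and 3. The next, 2322 bases from 145055145 to 145057466, ran through places of C and H and had a depth of 77.4, 59.2 and 77.6. Scaled to the libraries, the litter 3 ratios were 1.18 and 1.19 in these. The third, 2001 bases from 146162367 to 146164367, had a depth of 35.9, 31.5 and 93.2 and a ratio of 2.89, with 4.60% of its alignments in recurring runs. The fourth and the fifth, 145886007 to 145887928 and 146431362 to 146433283, lay in the identical blocks and had 42.6, 38.3 and 106 at both, a ratio of 2.73. These 3 stretches with ratios over 2 all held a place of pattern F. In the third, however, that place held only 1.42, 6.80 and 6.06 CPM, with litter 2 the highest and a ratio of 1.47. The ratio of 2.89 of that stretch thus lay mostly outside the place of F.

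The 5 windows of the highest mean were the places of pattern A. The highest of all, 145633001 to 145634000, held 215, 319 and 164 CPM in litters 1, 2 and 3 (233 ± 78.8, SD, n = 3), and the other 4 ranged down to 184, 274 and 149 CPM at 146460001. Litter 2 was highest and litter 3 lowest in all 5. The sixth, 147991001 to 147992000, lay near the right border and held 71.8, 101 and 184 CPM (119 ± 58.3, SD, n = 3), with 17.3% of its alignments in recurring runs. Its runs matched 72804893 to 72805335 on chromosome 3 with 48 shared runs. The span they lie in, 147991024 to 147991466, held 1753, 1683 and 4116 alignments, whether in recurring runs or not. The seventh window, next to it at 147992001, held 55.1, 31.0 and 88.5 CPM and had none. Ranks 8 and 9, at 146026001 and 145427001, were places of pattern B, and the last of the 10, at 146652001, a place of C with 57.3, 52.7 and 56.4 CPM. From the sixth to the ninth, litter 3 was the highest in every window.

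The 5 windows with the highest ratio of litter 3 to the others, with 0.5 CPM added, were all places of pattern D, at ratios from 7.14 to 8.02. The first, 146166001 to 146167000, held 14.9, 5.49 and 85.2 CPM. The 5 windows with the lowest ratio all lay from 147832001 on and had 0% of their alignments in recurring runs. The window at 147918001 held 100, 107 and 0 alignments, where a count of 0 allows up to 0.0937 CPM in litter 3, and that at 147832001 held 177, 33 and 1. The windows at 147999001 (107, 97 and 3 alignments), 147939001 (240, 299 and 39) and 147968001 (177, 236 and 27) also had litter 3 far below both others. The extremes on the high side were thus places of a repeated pattern in the first 2.2 megabases, and those on the low side held no recurring run and, but for 147832001, lay in the last 100 kb.

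Windows were also compared between the litters by a chi-square test of their counts against the library totals, run over all windows of the genome that averaged 10 CPM or more and adjusted by the Benjamini-Hochberg method. The test covers counting error only, and 69 of the region's 73 windows tested (94.5%) passed an adjusted p of 0.05, against 97.5% in the genome. Windows that also differed over 4-fold between the highest and the lowest litter numbered 21 of 73 (28.8%), against 17.4% of the 10917 tested in the genome. Litter 3 was the highest and litter 2 the lowest in 20 of them. The exception was the window at 145166001, with 532, 490 and 102 alignments, where litter 2 was the highest by CPM and litter 3 the lowest. Of the 21, 11 had over 50% of alignments in recurring runs, and windows that hold places of the same pattern are not independent of each other. With a limit of 2-fold the count was 50 (68.5%), against 54.3% in the genome, and when windows down to an average of 1 CPM were tested it was 87 of 238 (36.6%), close to the genome's 34.8%. Without litter 1 it was 20 (28.6%), against 15.1% in the genome, without litter 2 it was 9 (12.3%), against 10.8%, and without litter 3 it was 0, against 1.08%. Since the region was chosen on litter 3, nothing is read from these counts.

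Litters 1 and 2 were then compared without litter 3. The same test between them called 0 of 62 windows in the region at the limit of 4-fold, against 1.08% of the 10538 tested in the genome. Without the fold limit 48 of the 62 (77.4%) passed the adjusted p, against 77.5% in the genome, and 49 passed an unadjusted p of 0.05. With a limit of 2-fold 17 (27.4%) were called, against 8.92% in the genome, a limit added after the data were seen. Here too windows that hold places of the same pattern are not independent, so the 17 are not 17 separate differences. The ratio of litter 2 to litter 1 ranged from 0.314 to 2.03 over the 62 windows.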

How the data were processed

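Per the file headers, the authors deposited 1 coverage track per library, a signal that gives the number of alignments over each base and is not scaled to depth, made from lanes 3, 4 and 8 for litters 1, 2 and 3. Reads had been aligned with Bowtie to mm9, per the submitters' processing notes. The version of Bowtie is not given in the sources used here, nor how many placements a read could have or what was filtered, and strand and read identity are not in such a track.

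Isolated blocks were whole multiples of 72 bases in 100% of cases, so the depth was taken apart into alignments of 72 bases, which left 0 negative counts. The level of a window is the sum of depth times bases, divided by 72, as CPM of the same sum over the file. Start positions gave the recurring runs, and counts at a place of a pattern are alignments that start there. Decoding, window test and run search were tested on simulated data.

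Values are means with the SD over 3 litters. With 3 litters an exact sign-flip test cannot go below 0.25 and was not run. Windows named are the 10 of the highest mean CPM, the 5 highest and 5 lowest ratios among those of at least 1 CPM, the 5 longest covered stretches, and the 5 longest repeated blocks inside and outside, and the 16 patterns are named by level. The region, the patterns and these rules were chosen with earlier results of these data known. An mm9 genome and annotation were not used here, so marker lists were not analysed. Transcripts of GENCODE M21 and RefSeq gene order on GRCm38.p6 served only for names, neighbours and shared sequence. Python 3.11.15, numpy 2.4.6, scipy 1.17.1, pandas 2.3.3 and numba 0.67.0 were used.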

Additional observations from a re-analysis of the deposited data

How the results depend on the processing

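None of the 133 alternatives turned a ratio to the other side of 1. Only ratios could turn, and levels, counts and shares were judged by size alone. Of the 50 for the main values, 27 stayed within the spread between litters or, for counts, within 1.5 times. Of the 83 for single windows and patterns, 82 stayed within their limit. That limit was the spread between litters for a window's level and 1.5 times for the number of patterns. A window's ratio only had to stay on the same side of 1 under other scalings. The size factors used for this lay at 0.987 to 1.03 relative to the library totals, so most of these ratios could hardly turn. The region's mean level of 3517 CPM was 5378 without the 100 highest windows in the total, 5356 with each start position counted once, 2107 without recurring positions and 2547 with recurring alignments weighted by 1 over their places, the last added after the data were seen; without a litter it was 3095 to 3779. The ratio of 1.41 was 1.26 with starts counted once (rest of chromosome 4 0.991), 1.59 without recurring positions (1.05), 1.94 without the region's 10 highest windows and 1.96 without pattern A, the last added later; without litter 1 or 2 it was 1.36 to 1.46. The median ratio of 1.65 was 1.24 with a pseudocount of 5 CPM and 1.49 to 1.96 without a litter. The 166 windows at 1 CPM became 72 at 5 CPM and 288 with starts counted once, and 175 to 188 without a litter. The 486 stretches became 270 with gaps of 500 bases joined, 1082 in any litter, and 515 to 558 without a litter. The 21 varying windows (28.8% of those tested, genome 17.4%) became 50 at 2-fold (68.5%, genome 54.3%), 87 at a mean of 1 CPM (36.6%, genome 34.8%) and 0 to 20 without a litter (genome 1.08% to 15.1%). Between litters 1 and 2 the count of 0 became 17 at 2-fold (27.4%, genome 8.92%). The recurring share of 55.9% was 68.7% with at least 20 alignments per run, 45.0% with 100, 62.6% in runs of 5 positions and 47.3% to 52.1% without a litter. Where more than the way an alternative is built moved a value, the cause was not tested. No paired analysis was possible because there is only 1 group of samples. Depth bears on windows without an alignment in a litter, where 3 alignments are 0.0853 to 0.0944 CPM.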

Other observations

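Several places held alignments almost only in litter 3. At 4 of them, which began at 145051167, 145228036, 146647076 and 147115035, a pair of recurring runs held 0, 1 and 67 alignments in litters 1, 2 and 3. Another 2 places, which began at 145429191 and 145720564, held 0, 1 and 49. Whether these 6 places recur outside the region was not decided, because a match outside needed at least 3 shared runs and each place held fewer. They were chosen after their values were seen.

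Other places matched distant parts of chromosome 4. The place from 146598484 to 146598778 held 424, 412 and 1324 alignments in litters 1, 2 and 3, a ratio of 3.31, and shared 29 runs with 132656195 to 132656461. The place from 146597902 to 146597999, less than 1 kb before it, held 135, 196 and 50, a ratio of 0.312, and shared 10 runs with 132655613 to 132655710. Both matches lay in the same order and within 1 kb of each other. Litter 3 was the highest by CPM at the first of these places and the lowest at the other, while litter 2 was above litter 1 at both (12.1, 13.0 and 41.3 CPM against 3.84, 6.17 and 1.56).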
